A study of Mus musculus with 10 samples.

Results

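Pip, Prol1, Scgb2b27, Crisp3 and Smr2 are genes of secreted proteins associated with the mouse submandibular gland, and they were followed as 5 named genes out of the 18826 genes tested. They were chosen by name, and each had 1 probe set with a single gene symbol, so no choice between probe sets was needed. All 10 samples came from female NOD/shiLtJ mice, an inbred strain prone to autoimmune diabetes and to lymphocyte infiltration of its salivary glands. The groups were 4 samples from mice with type 1 diabetes at 21 weeks of age, 3 from mice without diabetes at 21 weeks and 3 from mice without diabetes at 6 weeks, with 1 Affymetrix array each. RNA came from cells freed from salivary gland with the enzymes dispase II and collagenase IV, and the labels do not name the gland. The labels number the samples within each group but do not say whether a sample was 1 animal or a pool, and nothing says that the numbers link samples across groups. Values are log2 intensities normalised between arrays, so a difference of 1 is a 2-fold difference in intensity.

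The acinar cells of salivary glands fill their granules with a few very abundant proteins and release them into saliva. In the mouse submandibular gland the ducts also store proteins, in the granular convoluted tubule, a segment whose development depends on androgens and thyroid hormone. Pip encodes prolactin-induced protein, a small secreted glycoprotein of saliva and tears. Prol1, for which the annotation gives the synonym Muc10, encodes the mucin-type glycoprotein of submandibular saliva. Scgb2b27 is a secretoglobin, a subunit of the salivary androgen-binding protein of the mouse, in which a beta-gamma type subunit such as Scgb2b27 or Scgb2b26 pairs with the alpha subunit Scgb1b27. Crisp3 encodes a cysteine-rich secretory protein of the granular convoluted tubule, and Smr2 is a submaxillary gland androgen-regulated gene.

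The 4 genes with a high signal lie on separate chromosomes, except that Prol1 shares chromosome 5 with Smr2. On the GRCm38.p6 assembly Pip lies at chr6:41847549-41852065, Prol1 at chr5:88317312-88328817, Scgb2b27 at chr7:34011919-34013942, Crisp3 at chr17:40221777-40242288 and Smr2 at chr5:88086556-88109053. The 250 bases before each annotated start are shown for these 4 genes, because 3 of them stayed within a narrow range over all arrays while Crisp3 did not. All 5 genes matched a promoter window in RefSeq. Capitals mark matches, on either strand, to TATAAA, which is the core of the promoter element at which transcription is set up, and to the motif AGAACA, to which the androgen and glucocorticoid receptors can bind. The search also covered AGGTCA, a motif of the thyroid hormone receptor and other nuclear receptors. The windows are chr17:40242289-40242538 on the minus strand for Crisp3, chr6:41847299-41847548 on the plus strand for Pip, chr5:88317062-88317311 on the plus strand for Prol1 and chr7:34013943-34014192 on the minus strand for Scgb2b27.
Crisp3: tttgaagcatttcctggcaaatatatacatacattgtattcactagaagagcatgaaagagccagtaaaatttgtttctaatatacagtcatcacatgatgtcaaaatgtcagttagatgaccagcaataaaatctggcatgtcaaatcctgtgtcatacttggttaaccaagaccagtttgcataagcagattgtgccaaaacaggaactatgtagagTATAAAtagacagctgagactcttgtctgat
Pip: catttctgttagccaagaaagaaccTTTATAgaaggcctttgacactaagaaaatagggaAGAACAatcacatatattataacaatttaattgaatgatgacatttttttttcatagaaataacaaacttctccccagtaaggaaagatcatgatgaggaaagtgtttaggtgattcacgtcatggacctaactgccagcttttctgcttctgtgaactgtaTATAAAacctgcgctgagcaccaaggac
Prol1: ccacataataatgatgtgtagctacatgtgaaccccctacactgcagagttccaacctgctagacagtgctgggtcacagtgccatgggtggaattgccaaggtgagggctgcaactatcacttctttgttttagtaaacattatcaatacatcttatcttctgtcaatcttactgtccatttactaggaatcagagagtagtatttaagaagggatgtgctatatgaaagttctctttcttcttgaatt
Scgb2b27: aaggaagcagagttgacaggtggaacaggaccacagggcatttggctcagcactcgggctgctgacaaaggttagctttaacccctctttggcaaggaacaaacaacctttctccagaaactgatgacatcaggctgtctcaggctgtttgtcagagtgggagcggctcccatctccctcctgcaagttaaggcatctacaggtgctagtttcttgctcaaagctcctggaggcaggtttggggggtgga
A forward TATAAA begins 31 bases before the annotated start of Crisp3 and 28 bases before that of Pip, where such an element usually lies, and Pip has a further reverse match 225 bases before the start. Pip alone of the 4 holds AGAACA, 190 bases before its start. The windows of Prol1, Scgb2b27 and Smr2 hold none of the 3 motifs, which says only that these letters are not in these bases. No matches overlapped. Of 32851 RefSeq windows of the same length, 12.4% hold TATAAA, 16.1% hold AGAACA and 14% hold AGGTCA on either strand.

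The name of abundant secretory genes held for 4 of the 5, but for Crisp3 less so on the diabetic arrays. There 267 to 2882 probe sets were as bright as Crisp3 or brighter, its own included, against 45 to 78 on nondiabetic arrays. Pip, Prol1 and Scgb2b27 were among the brightest probe sets of every array, while Smr2 was near background. Prol1 lay 0.49 to 0.77 log2 units below the maximum of its array, and 13 to 25 of the 41345 probe sets, its own included, were as bright or brighter. Pip lay 0.77 to 1.15 units below the maximum and Scgb2b27 0.82 to 1.13 units. Within 1 unit of the array maximum stood Prol1 on 10 of 10 arrays, Scgb2b27 on 7 and Pip on 6. Whether signal is compressed this near the highest observed values was not tested, so fold changes read from these 3 genes may not be exact. Crisp3 was never within 1 unit of the maximum and had 1.19 to 6.56 units below it.

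Array maxima differed little, between 13.13 and 13.23, and on 7 of the 10 arrays the brightest probe set was Scgb1b27, the partner subunit of Scgb2b27. On the remaining 3 arrays, diabetic arrays 2, 3 and 4, it was a probe set without a gene name here. Smr2 stood at 2.44 to 3.86, against array medians of 3.53 to 3.69. It exceeded the array's 25th percentile on 8 of 10 arrays and the array median on 1, diabetic array 4. All 5 genes passed the filter on low values, but for Smr2 the differences below are between values near background.

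**Figure D1:**
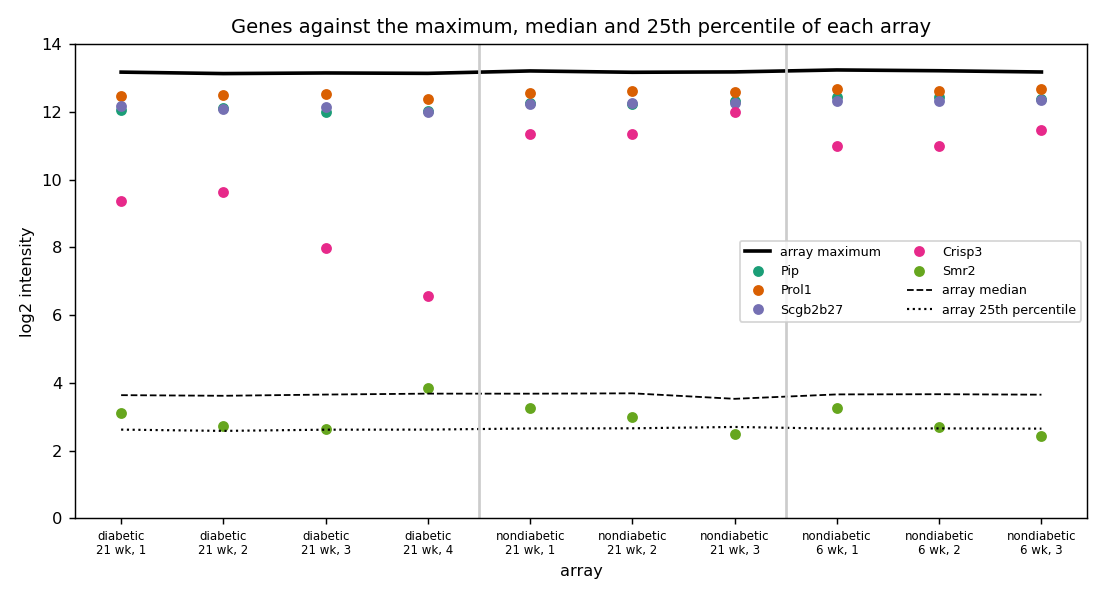
Log2 intensity (vertical axis) of the 5 genes on each of the 10 arrays (horizontal axis), with the maximum, median and 25th percentile of each array as lines. Prol1, Pip and Scgb2b27 run close under the array maximum of 13.13 to 13.23, Crisp3 is lower on the diabetic arrays than on the others, and Smr2 stays near the 25th percentile and median.

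Genes that mark acinar cells were well above background in all groups, with a mean over 12 of them (Aqp5, Bhlha15 and others) of 7.67 to 8.12 on diabetic arrays, 7.84 to 7.99 on nondiabetic 21-week arrays and 7.91 to 8.004 on 6-week arrays. Nondiabetic 21-week array 3 reached lower correlations over the genes tested, 0.917 to 0.961 with the other arrays, against 0.934 to 0.983 among the other 9. These ranges overlap. Diabetic array 4 had the highest mean over 9 T and B lymphocyte genes, 6.79, against 5.06 to 5.23 on the other diabetic arrays, 4.67 to 5.39 on nondiabetic 21-week arrays and 4.05 to 4.33 on 6-week arrays. The changes of Crisp3 in diabetic mice are given with and without both arrays. In these bulk samples, fewer cells of a type and less RNA per cell cannot be told apart.

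Crisp3 was the 1 gene of the 5 that differed between diabetic and nondiabetic mice of the same age by the test across all genes. Its log2 values were 9.38, 9.63, 7.97 and 6.58 in the diabetic mice, against 11.34, 11.35 and 11.98 in the nondiabetic 21-week mice. Every diabetic value lay below every nondiabetic value, with a gap of 1.71 units between the groups. Diabetic samples 3 and 4 were lower than diabetic samples 1 and 2, and the spread within the diabetic group (SD 1.41, n = 4) was wider than in the nondiabetic group (SD 0.37, n = 3). The mean was 8.39 in diabetic and 11.56 in nondiabetic mice, a fall of 9.0-fold (log2 change −3.17 ± 0.55, standard error of the limma fit, 95% interval −4.37 to −1.97, adjusted p = 0.0151).

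The call depended on single samples. Without diabetic sample 4 the fall was 5.92-fold and limma gave an adjusted p of 0.00577. Without nondiabetic 21-week sample 3 it was 7.76-fold with an adjusted p of 0.0785, and without diabetic sample 3 it was 8.17-fold with an adjusted p of 0.0575. With both diabetic sample 4 and nondiabetic sample 3 left out, the log2 change was −2.35 with an adjusted p of 0.0188. The nondiabetic values lay 1.19 to 1.86 units under their array maxima, and the diabetic values 3.5 to 6.56 units.

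Of the 18826 genes tested, 1.44% passed an adjusted p of 0.05 in this comparison and 0.34% passed and fell. Among the 5 genes, 1 passed and 4 did not. A further count concerns order alone: in 4 of the 5 genes (Pip, Prol1, Scgb2b27 and Crisp3) every diabetic value lay below every nondiabetic 21-week value, where 4.98% of all genes tested did so.

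**Figure D2:**
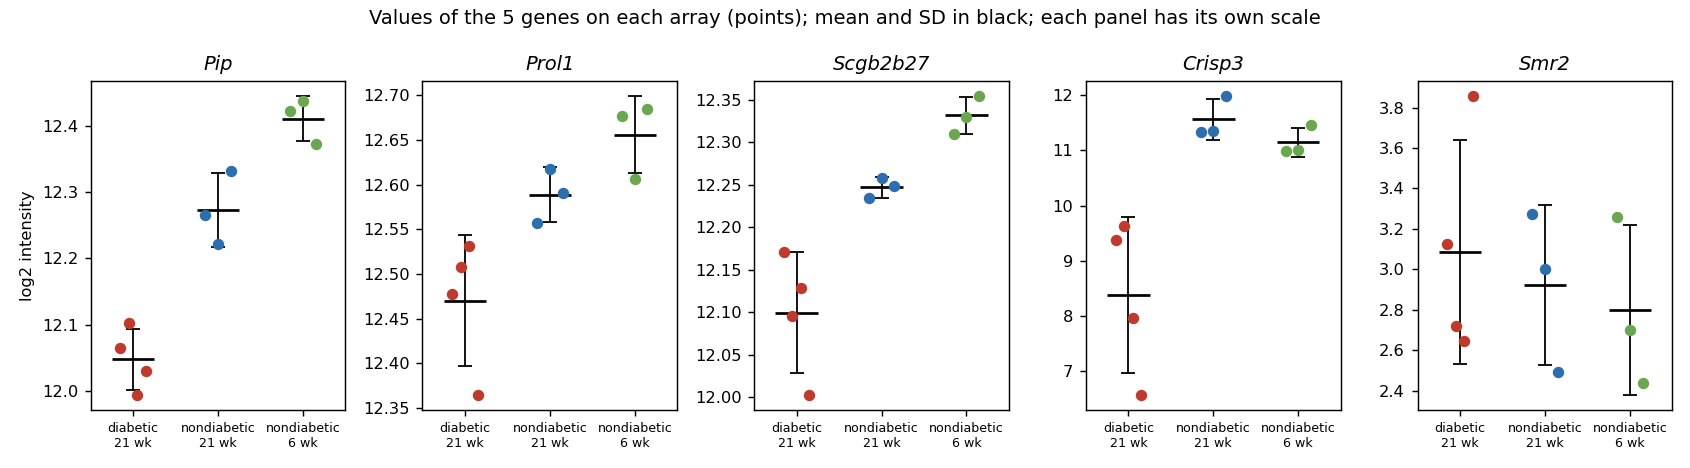
Log2 intensity of the 5 genes on each array (points, 1 per sample) in diabetic 21-week, nondiabetic 21-week and nondiabetic 6-week mice, with group means (thick bar) and SD (error bar); each panel has its own scale. In Pip and Scgb2b27 the groups separate completely but span under 0.5 log2 units, whereas Crisp3 spans 5.41 units and the Smr2 groups overlap.

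Pip, Scgb2b27 and Prol1 had lower values in the diabetic mice, by differences that did not pass the test. Since all 3 lie near the array maximum, the sizes of their differences are not ranked. The values of Pip were 12.06, 12.10, 11.99 and 12.03 in diabetic mice, against 12.27, 12.22 and 12.33 in nondiabetic mice of the same age. The groups did not overlap, and the gap between them was 0.119 units. The mean difference was −0.225 ± 0.105, an intensity 14.4% lower in diabetic mice, with a 95% interval of −0.453 to 0.0026 and a limma adjusted p of 0.321. The difference therefore did not pass the test, although it was larger than the SD within either group (0.046 in diabetic mice, n = 4, and 0.056 in nondiabetic mice, n = 3).

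Scgb2b27 read 12.17, 12.10, 12.13 and 12.003 in diabetic mice, against 12.23, 12.26 and 12.25 in nondiabetic 21-week mice. These groups were again apart, by 0.064 units, with diabetic sample 4 the lowest. The difference of −0.148 ± 0.105 (95% interval −0.376 to 0.080) did not pass (limma adjusted p = 0.528).

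For Prol1, the brightest of the 5, the values were 12.48, 12.51, 12.53 and 12.37 in diabetic mice, against 12.56, 12.62 and 12.59 in nondiabetic 21-week mice. Diabetic sample 4 was again the lowest, and the groups were apart by 0.026 units. The difference was −0.118 ± 0.107 (95% interval −0.349 to 0.113) and did not pass (limma adjusted p = 0.628). The adjusted p ranged over all alternatives of processing from 0.131 to 0.508 for Pip, 0.327 to 0.688 for Scgb2b27 and 0.442 to 0.788 for Prol1.

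Smr2 read 3.12, 2.72, 2.65 and 3.86 in diabetic mice, against 3.27, 3.0004 and 2.49 in nondiabetic 21-week mice. The groups overlapped, and diabetic sample 4 alone stood above its array median. The difference was 0.165 ± 0.290 (limma adjusted p = 0.825), and its sign turned without diabetic sample 4 (−0.092) or without nondiabetic sample 3 (−0.051).

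How the test weighed the bright genes bears on these values. Within groups the 3 brightest genes varied very little, with a residual SD of 0.046 for Pip, 0.056 for Prol1 and 0.049 for Scgb2b27, against a median of 0.204 over all genes tested. Small spread was common at this signal strength: over the 16 genes with a mean of 12 or more, these 3 included, the median was 0.057. Limma draws each gene's variance toward a value shared by all genes, so the SD used in the test was 0.138 for Pip, 0.140 for Prol1 and 0.138 for Scgb2b27. With a variance prior that follows signal strength (trended and robust), the standard error for Pip was 0.071, and its adjusted p between the 21-week groups was 0.131.

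The nondiabetic mice at 21 weeks were next set against those at 6 weeks, a comparison of ages without diabetes. Of the 5 genes 0 passed by limma, where 0.0266% of all genes tested did, and 0 had an unadjusted p under 0.05 (Pip had the smallest, 0.243), where 7.47% of all genes did. The 6-week values were 12.42, 12.44 and 12.37 for Pip, so Pip was lower at 21 weeks in each sample (difference −0.138 ± 0.112, adjusted p = 0.803). Scgb2b27 had 12.31, 12.33 and 12.35 at 6 weeks, also above each 21-week value (difference −0.085 ± 0.113, adjusted p = 0.885). These were 2 of the 5 genes with nonoverlapping, lower values at 21 weeks, where 9.73% of all genes tested were of that kind. Of the 16 genes with a mean of 12 or more, Pip and Scgb2b27 included, 4 were of that kind.

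Prol1 stood at 12.68, 12.61 and 12.68 in the 6-week mice, and the ages overlapped (difference −0.067 ± 0.114, adjusted p = 0.917). Crisp3 had 10.99, 11.00 and 11.45 at 6 weeks, within reach of the nondiabetic 21-week values, and the difference was 0.412 ± 0.591 (adjusted p = 0.895). Without nondiabetic 21-week sample 3 that difference was 0.199 (limma adjusted p = 0.974). Smr2 had 3.26, 2.70 and 2.44 at 6 weeks, with a difference of 0.122 ± 0.310 (adjusted p = 0.95). The sign for Crisp3 was thus positive and that of the 3 brightest genes negative, and all of these 95% intervals included 0.

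The diabetic mice were also compared with the 6-week mice, a contrast in which diabetes and age change together and which shares its samples with both comparisons above. Crisp3 was 6.76-fold lower in the diabetic mice (−2.76 ± 0.55, 95% interval −3.96 to −1.56, limma adjusted p = 0.0319), and the groups were 1.36 units apart. That call was lost without diabetic sample 3 (adjusted p = 0.0931) or without 6-week sample 1 (0.0905), 2 (0.101) or 3 (0.135). The fall was 4.45-fold without diabetic sample 4, with an adjusted p of 0.0141, and 0.00814 without nondiabetic 21-week sample 3 as well. Of all genes tested, 1.44% passed here and 0.542% passed and fell.

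Pip differed by −0.363 ± 0.105 between diabetic and 6-week mice (22.2% lower, 95% interval −0.590 to −0.135), which did not pass over all genes by limma (adjusted p = 0.121). It did pass with the trended and robust variance prior (adjusted p = 0.0208), under which Crisp3 did not (0.118), and with the trended prior alone, an alternative added after seeing the data (0.0253 for Pip, 0.0207 for Crisp3). Scgb2b27 differed by −0.232 ± 0.105 (limma adjusted p = 0.325) and Prol1 by −0.186 ± 0.107 (0.452), and Smr2 differed by 0.287 ± 0.290 (0.698). In 4 of the 5 genes, all but Smr2, the diabetic values lay wholly below the 6-week values, where 8.49% of all genes tested did so. Of the 16 genes with a mean of 12 or more, Pip, Prol1 and Scgb2b27 included, 12 did so.

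**Figure D3:**
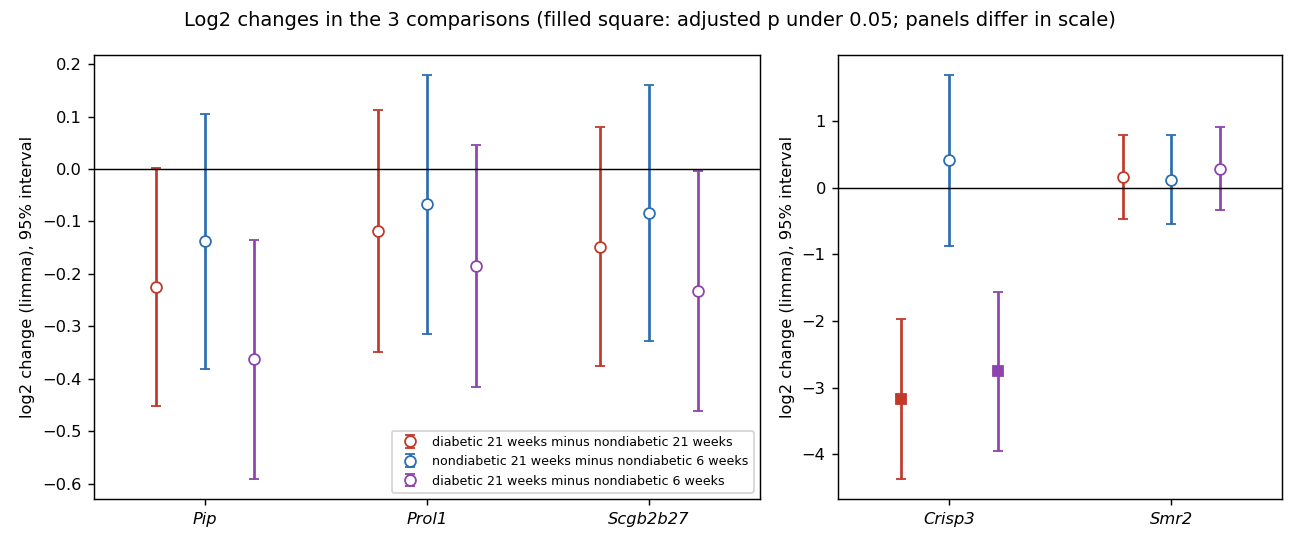
Log2 change with its 95% interval from the limma fit (vertical axis) for Pip, Prol1 and Scgb2b27 (left) and Crisp3 and Smr2 (right, on a wider scale) in the 3 comparisons. Filled squares mark an adjusted p under 0.05, reached by Crisp3 alone, at −3.17 against nondiabetic 21-week mice and −2.76 against 6-week mice.

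In Pip and Scgb2b27 the order was complete: every diabetic sample lay below every nondiabetic 21-week sample, and these below every 6-week sample. Of all genes tested 55, or 0.292%, had this order. Of the 16 genes with a mean of 12 or more, Pip and Scgb2b27 included, 3 had it. The whole span over 10 samples was 0.44 units for Pip and 0.35 for Scgb2b27, against 0.32 for Prol1.

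Most other genes with a mean of 12 or more had small negative differences too. Including Pip, Prol1 and Scgb2b27, 16 genes had a mean of 12 or more over the 10 arrays, a limit set after the values were seen. Between the 21-week groups 14 of these 16 had a negative log2 change, with a median of −0.146 over the 16 and a range of −0.371 to 0.118, whereas the median over all genes tested was 0.035. Of the 55 genes with a mean of 10 to 12, 21 had a negative change, and their median was 0.076. By limma 0 of the 16 passed over all genes, and 3 had an unadjusted p under 0.05. Of the 13 genes other than Pip, Prol1 and Scgb2b27, 11 had a negative change and 7 had every diabetic value below every nondiabetic 21-week value. Of the 16 bright genes 7 are encoded in mitochondrial DNA, and 4 of these 7 were among the 7 with separated groups.

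Among the bright genes were secretory products of the gland. Car6, the secreted carbonic anhydrase of saliva, had 12.15, 12.15, 12.12 and 11.96 in diabetic mice, against 12.29, 12.24 and 12.36 in nondiabetic 21-week mice (−0.205 ± 0.109, limma adjusted p = 0.389). ND5, a subunit of mitochondrial complex I that is no secretory protein, had 12.35, 12.38, 12.45 and 12.29 in diabetic mice, against 12.51, 12.51 and 12.52 in nondiabetic 21-week mice (−0.145 ± 0.105, adjusted p = 0.535). Both pairs of groups were apart by less than 0.1 units. What part a shift shared by the brightest probe sets has in the values of Pip, Prol1 and Scgb2b27 was not tested.

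**Figure D4:**
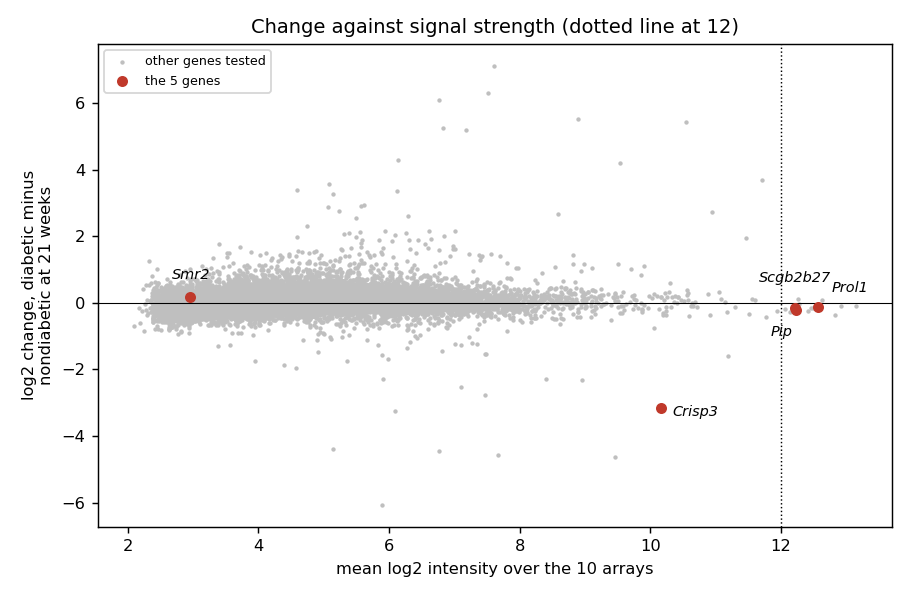
Log2 change between diabetic and nondiabetic 21-week mice (vertical axis) against the mean log2 intensity over the 10 arrays (horizontal axis) for the 18826 genes tested, with the 5 genes in red. Right of the dotted line at 12 the points lie between −0.371 and 0.118, while Crisp3 lies at −3.17.

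The likeness of profiles was measured as the root mean square difference of log2 values over the 10 arrays, after each gene was centred on its own mean, among 16659 named genes. Klk1b11, a tissue kallikrein of the granular convoluted tubule, was the gene most like Crisp3, with a difference of 0.189 units where Crisp3 itself varied by 1.66 units about its mean. Klk1b11 read 9.24, 9.64, 8.16 and 6.81 in diabetic mice, against 11.52, 11.53 and 11.89 in nondiabetic 21-week mice and 10.80, 10.87 and 11.10 in 6-week mice. It was chosen for this likeness, so its values are a description. Its order of diabetic mice (sample 2 highest, then 1, 3 and 4) was that of Crisp3. Next came Klk1b21, another kallikrein (0.547), and Fads2b, a member of the fatty acid desaturase family (0.582). The kallikrein genes are near copies of each other, so a single member cannot be separated with certainty by hybridisation.

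**Figure D5:**
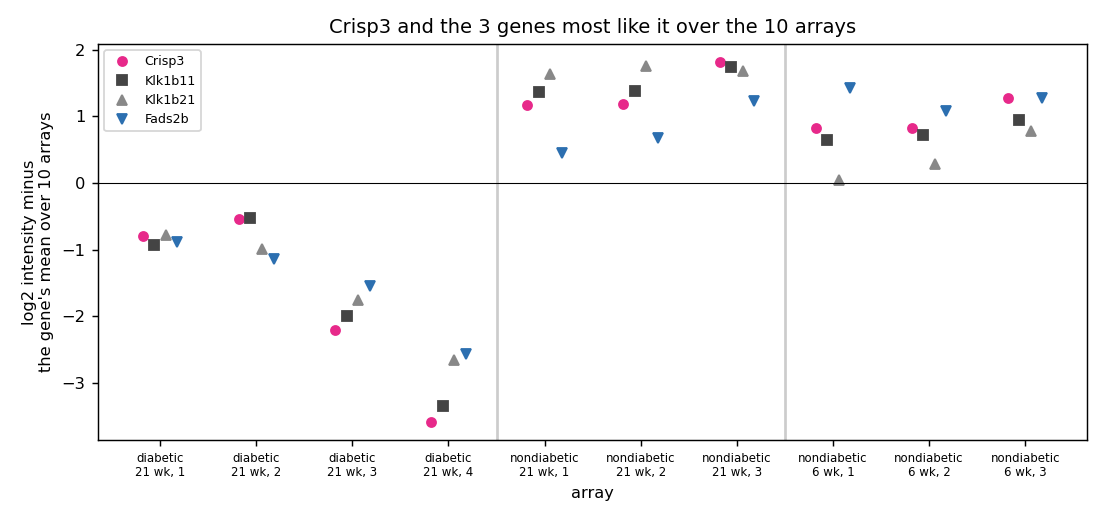
Log2 intensity minus each gene's own mean over the 10 arrays (vertical axis) for Crisp3, Klk1b11, Klk1b21 and Fads2b on each array (horizontal axis). All 4 genes lie below 0 on the diabetic arrays and above 0 on the nondiabetic arrays, and diabetic array 4 is the lowest for each.

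Granular convoluted tubule genes, listed without Crisp3, were lower in the diabetic mice as well. Of 12 measured, 11 fell, 0 rose and 1 did not pass between the 21-week groups, with a median log2 change of −3.21 against 0.035 over all genes. The gene that did not pass was Klk1, near the array maximum with a mean of 12.83 over the 10 arrays. Its diabetic values were lower too, with the groups apart by 0.138 units (−0.371 ± 0.142, limma adjusted p = 0.235). The kallikreins Klk1b24 (6.76-fold, limma adjusted p = 0.000335) and Klk1b9 (23.6-fold, 0.000335) fell, averaging 6.27 and 5.40 in diabetic mice, against 9.02 and 9.96 in nondiabetic 21-week mice. Klk1b8 and Klk1b1 fell too, but with diabetic means of 2.80 and 3.005 they lay near background there, so their folds are not given. The mean level of the 12 genes was 6.86, 7.21, 6.30 and 5.37 on diabetic arrays 1 to 4, against 9.49, 9.63 and 10.14 on nondiabetic 21-week arrays and 8.37, 8.60 and 8.83 on 6-week arrays. Diabetic arrays 3 and 4, the lowest for Crisp3, were also the lowest here. Between nondiabetic mice at 21 and 6 weeks the list's median change was 1.33 and the change of Crisp3 was 0.412. There 0 of the 12 passed by limma and 8 had an unadjusted p under 0.05, and Crisp3 was not tested against the list. Against the 6-week mice 9 of the 12 fell in the diabetic mice, and this count was 4 without diabetic sample 3 and 5, 4 or 2 without 6-week sample 1, 2 or 3.

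For Pip the most similar profiles were those of Ubtd1, a ubiquitin-domain gene (0.049), Obox6, an oocyte-type homeobox gene near background (0.051), and Car6 (0.055), where Pip itself varied by 0.158. The nearest to Prol1, which varied by 0.092, were ND5 (0.037), ND4 (0.044) and ND2 (0.048), 3 subunits of mitochondrial complex I. Nearest to Scgb2b27, which varied by 0.107, were Smlr1 (0.049), Car6 (0.052) and ND5 (0.054). For Smr2, which varied by 0.417, they were Gimap9 (0.157), a GTPase gene of immune cells, Kif2c (0.161), a kinesin gene of dividing cells, and the microRNA gene Mir1931 (0.167). Gimap9 and Kif2c averaged 2.799 and 2.86 over the 10 arrays, as near to background as Smr2. Obox6 and Smlr1 averaged 3.01 and 3.39, far below Pip and Scgb2b27. All of these genes were chosen for their likeness, so their closeness is a description.

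Relatives of the 5 genes were followed by family. Of 22 secretoglobins listed beside Scgb2b27, 10 were measured above the filter, and between the 21-week groups 1 fell, 0 rose and 9 did not pass, with a median of −0.149. Scgb1c1, a secretoglobin of the C group, was the member that fell, with 5.14, 5.32, 4.004 and 3.35 in diabetic mice, against 6.35, 6.15 and 6.09 in nondiabetic 21-week mice. Its log2 change was −1.74 ± 0.38 (limma adjusted p = 0.0413), and diabetic samples 3 and 4 were again the lowest. The size of this fall is not exact, since diabetic sample 4 lay below its array median of 3.68. The call was lost with the array of diabetic sample 3 (adjusted p = 0.133), nondiabetic 21-week sample 1 (0.103), 2 (0.0889) or 3 (0.126), or 6-week sample 1 (0.0607), 2 (0.0562) or 3 (0.0609) left out.

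The other subunits of androgen-binding protein had small negative differences that did not pass. Scgb2b26, a close copy of Scgb2b27 whose signal may be shared with it, had 12.20, 12.28, 12.35 and 12.10 in diabetic mice, against 12.49, 12.49 and 12.50 in nondiabetic 21-week mice and 12.53, 12.60 and 12.53 in 6-week mice. It too had the complete order of groups, and its difference between the 21-week groups was −0.259 ± 0.110 (limma adjusted p = 0.278). Scgb1b27, the alpha subunit at the top of the scale, had 13.17, 13.11, 13.01 and 13.09 in diabetic mice, against 13.20, 13.17 and 13.18 in nondiabetic 21-week mice, which overlap (−0.088 ± 0.105, adjusted p = 0.727). Scgb2b7, about 2 units below the array maximum with a lowest gap of 1.85, averaged 11.00 ± 0.07 in diabetic mice and 11.28 ± 0.08 in nondiabetic 21-week mice (SD, n = 4 and 3; −0.282 ± 0.109, adjusted p = 0.24).

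Among the proline-rich and mucin-like relatives of Prol1 and Smr2, 5 of 10 listed genes were measured, of which 1 rose, 0 fell and 4 did not pass. Smr3a, the neighbour of Smr2 in family and name, had 11.24, 11.16, 10.80 and 11.28 in diabetic mice, against 2.95, 1.98 and 7.08 in nondiabetic 21-week mice and 9.18, 3.17 and 7.19 in 6-week mice. Its rise (7.11 ± 1.25, limma adjusted p = 0.0155) is not exact, since nondiabetic sample 2 lay at background. That call was lost without diabetic sample 3 (adjusted p = 0.0501) or nondiabetic 21-week sample 1 (0.0573) or 2 (0.0536). Smr2, of the same family, stayed near background on these arrays. In the family of Crisp3, the CAP superfamily of cysteine-rich secretory proteins, 8 of 14 listed genes were measured and by limma 0 passed between the 21-week groups, with 1 at an unadjusted p under 0.05. That member was Pi16, with a change of 0.920 ± 0.252 (adjusted p = 0.101).

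Genes around the secretory cell were counted in the same comparison. Of the 12 acinar identity genes by limma 0 passed over all genes and 2 had an unadjusted p under 0.05 (median 0.070). The smallest p-values were those of Ano1, a chloride channel (0.425 ± 0.120, adjusted p = 0.109), and Slc12a2, a chloride transporter (−0.368 ± 0.132, adjusted p = 0.203). The 12 include the water channel Aqp5 (0.097 ± 0.162, adjusted p = 0.814) and the secretory cell regulator Bhlha15 (−0.282 ± 0.180, adjusted p = 0.47). Of 14 genes of granule exocytosis 1 fell, 0 rose and 13 did not pass (median −0.103). Rab27b, a small GTPase that docks secretory granules, fell 1.81-fold, with 5.90, 6.02, 5.56 and 5.61 in diabetic mice, against 6.31, 6.49 and 7.10 in nondiabetic 21-week mice (−0.860 ± 0.183, limma adjusted p = 0.039). Its fall against 6-week mice was 2.14-fold (limma adjusted p = 0.0128). That call was lost without diabetic sample 3 (adjusted p = 0.0502) or 6-week sample 2 (0.0661) or 3 (0.0709). Between the 21-week groups the adjusted p for Rab27b was 0.124 without nondiabetic 21-week sample 3, 0.125 without diabetic sample 3, and it was 0.0527 to 0.0747 without any of the other samples except nondiabetic 21-week sample 1 (0.0347).

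Genes typical of another salivary gland, the parotid, rose in the diabetic mice. Of 7 genes of parotid-type cargo 6 rose, 0 fell and 1 did not pass, and their mean level was 9.38, 9.27, 8.76 and 9.20 on diabetic arrays, against 4.46, 4.37 and 5.88 on nondiabetic 21-week arrays and 7.63, 4.79 and 5.94 on 6-week arrays. Amy1, the salivary amylase, averaged 9.54 in diabetic mice and 4.31 in nondiabetic 21-week mice (limma adjusted p = 0.000519), with no fold given because nondiabetic sample 1, at 3.59, lay below its array median. Dnase1, a secreted nuclease, averaged 9.93 in diabetic mice and 4.76 in nondiabetic 21-week mice (36.1-fold, 0.000608). Of 8 sublingual mucous genes 1 rose (Galnt12) and 7 did not pass. By limma 5 of the 8 had an unadjusted p under 0.05, and the median log2 change was 1.78. Their mean levels were 8.05 to 8.60 on diabetic arrays, 4.73 to 8.17 on nondiabetic 21-week arrays and 7.07 to 7.90 on 6-week arrays. The immediate-early genes, which respond to tissue dissociation, rose in 9 of 10 cases, among them Atf3 (2.63-fold, limma adjusted p = 0.000874) and Klf6 (2.41-fold, 0.000987). Their mean level was 7.67 to 8.14 on diabetic arrays, 6.63 to 6.86 on nondiabetic 21-week arrays and 6.51 to 6.85 on 6-week arrays. The part of gland composition and of dissociation in the values of Crisp3, Pip, Prol1 and Scgb2b27 was not tested.

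The remaining lists gave the following counts between the 21-week groups. Duct epithelium was represented by 10 genes, of which 2 fell and 8 did not pass. The 2 that fell were Scnn1b, a sodium channel subunit (2.17-fold lower, limma adjusted p = 0.00328), and Ascl3, a transcription factor of duct progenitors (2.36-fold lower, 0.0104). Of 7 myoepithelial genes 2 rose (Acta2 and Myh11) and 5 did not pass, and of 6 adipocyte genes 2 rose (Fabp4 and Retn) and 4 did not pass. By limma 0 of 9 lymphocyte genes and 0 of 5 skeletal muscle genes passed over all genes, with 2 lymphocyte genes and 1 muscle gene at an unadjusted p under 0.05.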

How the data were processed

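The authors deposited 1 log2 intensity for each probe set and array. Per the submitters' processing notes, RMA as run by Affymetrix Power Tools produced them. Its version, its settings and any filter are not stated there. Of 41345 probe sets, 23521 had 1 gene symbol, 1814 had several and 16010 were unnamed here, and 23328 of the first matched RefSeq by gene identifier with 0 symbols changed. Probe sets with 1 symbol were kept where they exceeded the array's 25th percentile on at least 3 arrays, and the brightest stood for its gene, which left 18826 genes. All 10 arrays entered 1 limma 3.58.1 fit (R 4.3.3, lmFit and eBayes, 7 residual and 5.61 prior degrees of freedom), two-sided, with Benjamini-Hochberg adjustment over all genes and a threshold of 0.05. The number of arrays limits the precision. Each sample is labelled as a numbered replicate, and p-values measure only the spread between these samples. Near the top of the scale was set at 1 log2 unit below the array maximum. No pair of arrays was identical (0 pairs). The steps were tested on simulated data.

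Same-numbered samples did not deviate together between the 21-week groups (correlations −0.118, −0.0245 and −0.0229), so numbers were not used as pairs. The genes, gene lists and tests were chosen with earlier results of these data known. Named genes were the 5 genes, up to 4 members of each list with the smallest p among those past the threshold (2 where none passed), all relatives that passed, and the 3 nearest profiles per gene, without predicted models and antigen receptor segments. Not all of these are named in the text. Scgb1b27, Scgb2b26, Scgb2b7, Aqp5, Bhlha15 and Klk1 are named outside this rule, chosen after their values were seen. Alternatives covered the filter, probe set choice, arrays in the fit, variance prior, array weights, normalization, the replicate block and each array left out.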

Additional observations from a re-analysis of the deposited data

Results flagged for a closer look

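In the diabetic group of 4, 69 genes (the 5 secretory genes and 64 others admitted by the naming rule) were examined for a sample far from the rest, measured as its gap to the nearest sample over the group's range. Chance flags about 1 in 20 such groups. Of the 5 secretory genes 0 stood out and of the other 64 genes 5 did. Egf, the gene of epidermal growth factor, had a ratio of 0.964, with 6.73 in diabetic sample 4 against 7.59 to 7.62 in the others. Galnt12, an enzyme of mucin glycosylation, had a ratio of 0.931, with 4.58 in sample 4 against 5.34 to 5.40. Ptprc, the pan-leukocyte gene, had a ratio of 0.929, with 8.10 in sample 4 against 5.80 to 5.96. Mir1931, near in profile to Smr2, had a ratio of 0.861, with 5.32 in sample 4 against 4.12 to 4.29. Pi16, a CAP family member, had a ratio of 0.947, with 5.51 in diabetic sample 3 against 5.01 to 5.04.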

How the results depend on the processing

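Over 22 alternatives of filter, probe set choice, arrays, variance prior, weights, normalization and left-out samples, Pip, Prol1 and Scgb2b27 kept a negative sign in all 3 comparisons. Crisp3 was lower in diabetic mice in 22 of 22 alternatives in both comparisons, and it passed between the 21-week groups in 18 of 22 and against 6-week mice in 16 of 22. With every probe set tested, the changes of Crisp3, −3.17 and −2.76, no longer passed by limma (adjusted p = 0.0831 and 0.135), and 0 of the 5 genes passed in either comparison, with more features tested. With the trended and robust prior Crisp3 (−3.17 and −2.76) did not pass (0.0804 and 0.118), so 0 of the 5 genes passed between the 21-week groups although the size of the fall was the same, while Pip (−0.36) passed against 6-week mice. Under the trended and robust prior 1.93% of all genes tested passed between the 21-week groups and 1.96% against 6-week mice. In the main fit the share was 1.44% in both. With the trended prior alone, chosen after seeing the data, 2 of the 5 genes passed against 6-week mice, Crisp3 and Pip (−0.36). Shares of all genes are not given here for that prior, for every probe set or for left-out samples. Leaving out 1 sample at a time, the change of Crisp3 ranged from −3.58 to −2.57 between the 21-week groups and from −3.17 to −2.15 against 6-week mice, and the count of the 5 genes that passed from 0 to 1 in both. Smr2, near background, changed sign between the 21-week groups with array weights (−0.11), without both diabetic sample 4 and nondiabetic sample 3 (−0.31) and over left-out samples (−0.092 to 0.34), and between ages over left-out samples (−0.059 to 0.35). The cause of these changes was not tested. The filter at the array median removed Smr2. Within 0.5 units of the array maximum were 0 arrays for Pip, 1 for Prol1 and 0 for Scgb2b27, and within 2 units 10 for Pip and 4 for Crisp3. The samples share replicate numbers only by name. With the replicate number as a block, in which only same-numbered samples count, Crisp3 changed by −2.57 (limma adjusted p = 0.0157) and −2.15 (0.0367), Pip by −0.22 between the 21-week groups (0.421), and Smr2 by −0.092.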

Other observations

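Several probe sets with more than 1 gene symbol belong to the same families and were left out of the comparisons. The probe set shared by Mucl2 and Mucl1, mucin-like genes, read 12.44, 12.60, 12.59 and 12.48 in diabetic mice, against 12.62, 12.71 and 12.66 in nondiabetic 21-week mice and 12.71, 12.75 and 12.71 in 6-week mice. Its diabetic values lay below all the others. The probe set shared by Prp2 and Prh1, proline-rich proteins, read 2.44, 2.38, 2.29 and 3.24 in diabetic mice and 3.07, 3.84 and 2.44 in nondiabetic 21-week mice, while the 6-week mice had 4.79, 4.43 and 4.46, above all older mice. These values were not tested.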
